A study of Homo sapiens with 6 samples.

Results

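Expression of 10 genes of haem and iron handling was examined in 143B cells, an established human osteosarcoma line: HMOX1, HMOX2, BLVRA and BLVRB of haem breakdown, FTH1, FTL and NCOA4 of iron storage, TFRC of iron uptake, and ALAS1 and FECH of haem synthesis. They were listed by name, with earlier results of these data known, and matched by symbol, which found 10 of the 60683 genes in the table. All 10 passed the filter on low counts, with 205 to 21670 reads per library. The cells had been given PBS (3 libraries) or TPBC-PEG (3 libraries) for 24 h before messenger RNA was sequenced. The series concerns photodynamic therapy, in which a compound forms reactive oxygen species under light, and its design sets treated against untreated 143B cells. The sample titles give TPBC-PEG at 3 µM and the treatment protocol at 300 µM, so the dose is not settled, and whether these cells saw light is not stated. The labels name no genetic change that differs between the groups.

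Haem is an iron-holding ring made in mitochondria and cytosol, with ALAS1 at the first step outside red cell precursors and FECH inserting the iron at the last. Haem oxygenases open the ring and set free iron, carbon monoxide and biliverdin, which biliverdin reductases turn into bilirubin. Free iron is kept in ferritin, a shell of heavy (FTH1) and light (FTL) chains, and the transferrin receptor TFRC brings iron in from outside. HMOX1 and the ferritin genes are textbook targets of the stress factor NRF2, and the repressor BACH1, which haem inactivates, acts on the same sites.

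Iron also acts on some of these messages directly. Iron regulatory proteins bind a hairpin called the iron-responsive element when iron is scarce. A hairpin in the leader blocks translation, as in ferritin, while hairpins behind the coding part of TFRC protect its message from decay. The element was searched in GENCODE 29 transcripts (GRCh38) as a bulged C, 5 paired bases and the loop CAGTGN, with G-T pairs allowed. It was found in 1.48% of genes with a protein-coding transcript (291 of 19702), where any such transcript of a gene could hold it. Of the 8 genes searched (all but HMOX1 and FTH1, in 1 principal transcript each), FTL held 1 and TFRC held 4. They are shown because they set the FTL and TFRC messages apart from the other 6 searched, in which the full pattern was not found. Each is 29 bases, with the loop in capitals. The FTL element lies in the 5′ UTR at chr19:48965335-48965363 on the plus strand, and the TFRC elements lie in the 3′ UTR on the minus strand at chr3:196050979-196051007, chr3:196050575-196050603, chr3:196050510-196050538 and chr3:196050463-196050491, in the order of the message.
FTL: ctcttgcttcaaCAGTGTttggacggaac
TFRC 1: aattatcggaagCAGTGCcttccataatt
TFRC 2: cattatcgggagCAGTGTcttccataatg
TFRC 3: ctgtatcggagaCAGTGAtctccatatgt
TFRC 4: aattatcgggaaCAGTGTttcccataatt
The 4 TFRC elements shared 18 to 25 of 29 bases with each other, and the FTL element shared 10 to 13 bases with them.

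The libraries held 15726323 to 20486584 counts. Across genes, log2 CPM correlated at r = 0.992 to 0.993 within groups and 0.985 to 0.988 between groups, and no pair of libraries in a group agreed within sampling noise. The extraction protocol speaks of animal tissue, although every sample is labelled as the cell line, and which holds is not settled by the labels. They also do not state that replicates were separate cultures; p-values therefore reflect the spread among these 6 libraries alone, which could be technical. Vimentin (VIM), a defining mesenchymal marker, stood at 2577 ± 22.6 CPM with PBS (SD, n = 3) and 2344 ± 48.5 CPM with TPBC-PEG (SD, n = 3). Of the 8 mesenchymal markers of the line 6 were measured, and COL1A2 and THY1 were under 1 CPM in every library. VIM (log2 fold change -0.14), COL1A1 (-0.48) and SPARC (-0.18) fell and RUNX2 rose (0.55), with edgeR adjusted p = 0.00214, 2.01e-05, 0.000175 and 5.57e-07, and the part of these markers in the other results was not tested. Of the 4 epithelial markers, EPCAM was present at 16.1 ± 1.41 CPM with PBS (SD, n = 3). The other 3, CDH1, KRT5 and KRT14, were under 1 CPM in every library. All 13 erythroid markers were under 1 CPM in every library, with HBA1, HBA2, HBB and ALAS2 at 0 and a summed level of 0 to 0.111 CPM with PBS and 0 to 0.193 CPM with TPBC-PEG. Of 10 macrophage markers 9 were under 1 CPM, and their summed level was 0.883 to 1.72 CPM with PBS and 0.719 to 1.98 CPM with TPBC-PEG. In bulk libraries, fewer cells of a type and less RNA per cell cannot be told apart.

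Transcripts of the inducible haem oxygenase HMOX1 and of both ferritin chains rose in the TPBC-PEG libraries, while the constitutive haem oxygenase HMOX2 and the ferritin cargo receptor NCOA4 fell. BLVRB and FECH rose by small amounts near the threshold, and BLVRA, TFRC and ALAS1 did not pass the test. By edgeR's quasi-likelihood test with Benjamini-Hochberg adjustment over all 15846 genes tested, called at an adjusted p under 0.05, 5 of the 10 genes were higher and 2 were lower. The higher count was 3 without PBS replicate 1, and also 3 without either of TPBC-PEG replicates 1 and 2. Across all genes tested 33.2% were called, 16.2% higher (2574) and 16.9% lower (2682). The same 7 genes had groups that did not overlap in TMM-scaled CPM (reads of a gene relative to the library's total), as did 43.4% of all genes tested. The median log2 fold change was 0.12 over the 10 genes and 0.011 over all genes tested. Because the 10 genes were chosen with earlier results known, these contrasts with all genes are descriptions only. The split of all calls moved with the scaling, to 3213 higher and 1971 lower when libraries were scaled by their totals alone.

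**Figure D1:**
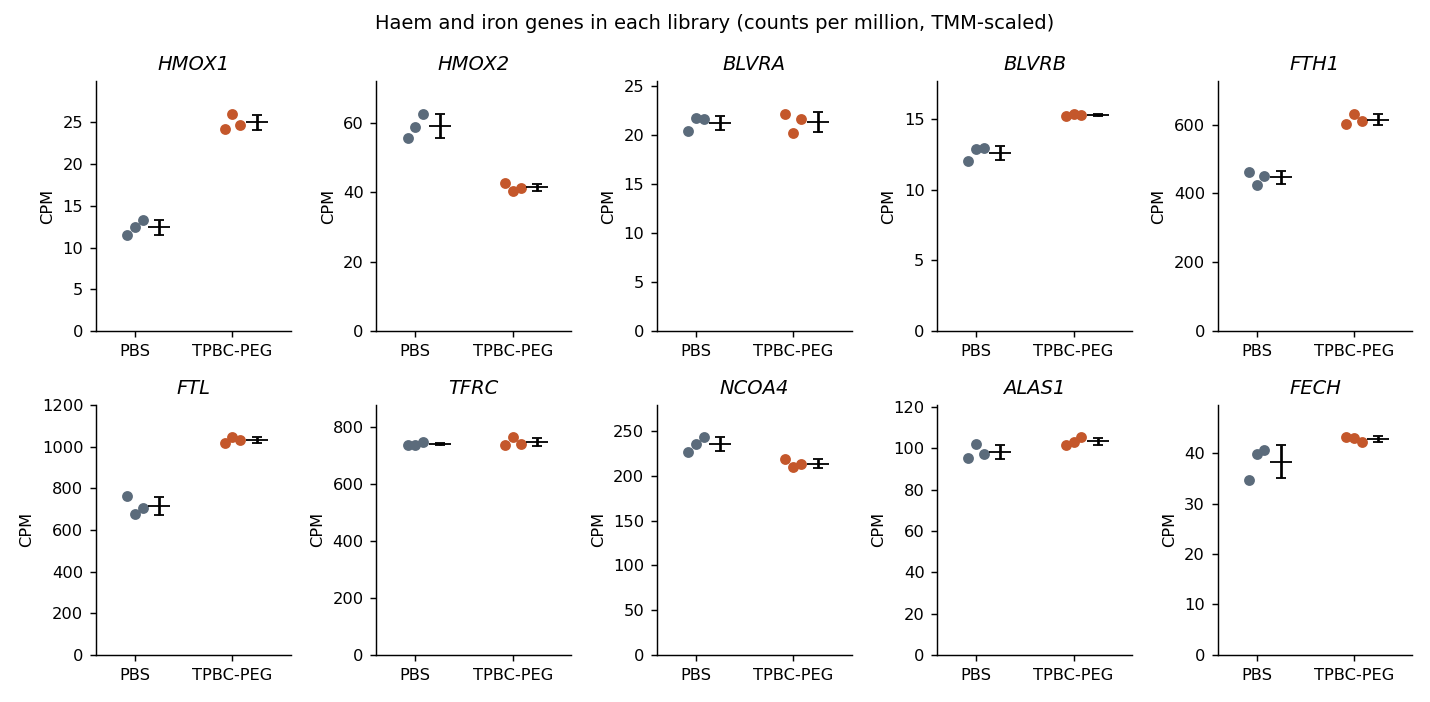
Level of each of the 10 genes (y axis, TMM-scaled CPM, from 0) in the 3 PBS and 3 TPBC-PEG libraries (points), with the mean and SD of each group. HMOX1 rises from 12.4 to 25.0 CPM, FTH1, FTL and HMOX2 part the groups by more than their spread, and BLVRA, TFRC and ALAS1 overlap.

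HMOX1, the stress-inducible haem oxygenase, is encoded at chr22:35380361-35394214 (GRCh38, plus strand). It measured 11.5, 12.5 and 13.3 CPM in the PBS libraries and 24.3, 26.0 and 24.7 CPM in the TPBC-PEG libraries. The lowest TPBC-PEG library stood well above the highest PBS library. The means were 12.4 ± 0.891 and 25.0 ± 0.925 CPM (SD, n = 3 each), a 2.02-fold rise (log2 fold change 1.01 ± 0.088 SE, 95% confidence interval 0.84 to 1.19, edgeR adjusted p = 2.24e-13). It was the only one of the 10 genes whose change exceeded 1.5-fold in a test against that size (edgeR adjusted p = 0.000188), a test that called 131 genes higher and 14 lower in all. Over 20 other settings its log2 fold change stayed between 0.95 and 1.07, and it was called in each.

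HMOX2, the constitutive haem oxygenase (chr16:4474690-4510347, plus strand), moved the other way. Its levels were 55.5, 58.7 and 62.6 CPM with PBS and 42.5, 40.4 and 41.1 CPM with TPBC-PEG. Every TPBC-PEG library was below every PBS library. The mean fell from 58.9 ± 3.51 to 41.3 ± 1.12 CPM (SD, n = 3 each), a log2 fold change of -0.51 ± 0.059 SE (95% interval -0.63 to -0.39, edgeR adjusted p = 1.03e-09). Of its exon length 6.01% overlaps NMRAL1 on the other strand, and with the counts of both genes summed the log2 fold change was -0.42 (edgeR adjusted p = 1.58e-09).

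The opposite moves changed the make-up of the haem oxygenase reads more than their total. Per library, the ratio of HMOX1 to HMOX2 counts was 0.208, 0.212 and 0.213 with PBS and 0.570, 0.645 and 0.602 with TPBC-PEG. The mean log2 difference was 1.52. A ratio taken inside a library does not depend on scaling. With 3 libraries against 3 an exact two-sided permutation test cannot go below p = 0.1, the value found here (0.125 adjusted over the 5 ratios tested). HMOX1 supplied 17.4 ± 0.197% of the reads of the pair with PBS and 37.7 ± 1.46% with TPBC-PEG (SD, n = 3 each). Their summed level was 67.1, 71.2 and 75.9 CPM with PBS and 66.8, 66.4 and 65.8 CPM with TPBC-PEG, so the groups did not overlap but lay close together (71.4 ± 4.40 against 66.3 ± 0.515 CPM, SD, n = 3 each; exact permutation p = 0.1).

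**Figure D2:**
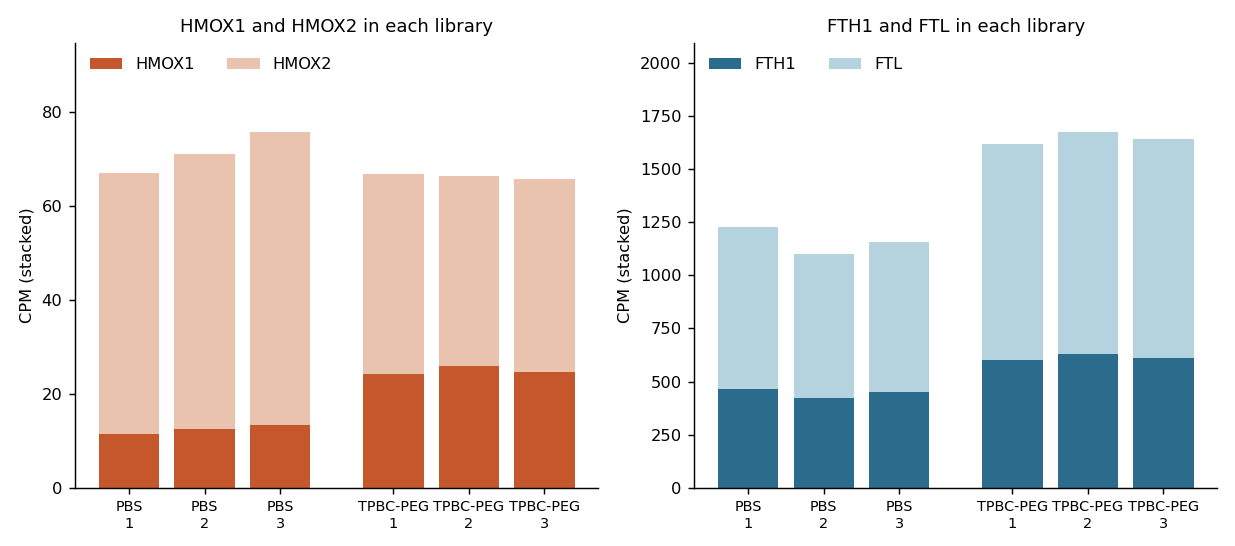
Stacked levels (y axis, TMM-scaled CPM, bars from 0) of HMOX1 with HMOX2 and of FTH1 with FTL in each of the 6 libraries. The haem oxygenase bars keep a similar height while the HMOX1 part grows from 17.4% to 37.7%; the ferritin bars grow from a mean of 1161 to 1645 CPM with an FTH1 part of 38.5% and 37.3%.

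Of the biliverdin reductases BLVRB passed the test and BLVRA did not. BLVRA, which makes the main adult form of bilirubin (chr7:43758680-43807342, plus strand), measured 20.4, 21.7 and 21.6 CPM with PBS and 22.1, 20.2 and 21.6 CPM with TPBC-PEG. The groups overlapped fully. Its log2 fold change was 0.0065 ± 0.081 SE, with a 95% interval of -0.16 to 0.17 (edgeR adjusted p = 0.962). No change, and any increase or decrease inside that interval, are compatible with these libraries.

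BLVRB, which also reduces flavins (chr19:40447765-40465840, minus strand), measured 12.05, 12.86 and 12.93 CPM with PBS and 15.2, 15.4 and 15.3 CPM with TPBC-PEG. The TPBC-PEG libraries were all above the PBS libraries. It rose by 0.28 ± 0.097 SE on the log2 scale (95% interval 0.085 to 0.48, edgeR adjusted p = 0.0209). The call was lost with DESeq2 (adjusted p = 0.0647), when any of 3 libraries was left out (edgeR adjusted p = 0.0887 without PBS replicate 1, 0.0545 without TPBC-PEG replicate 1 and 0.0625 without TPBC-PEG replicate 2) and when a trend with expression level was removed (edgeR adjusted p = 0.0547). It was also lost when its counts were summed with those of its pseudogene BLVRBP1 (0.24, edgeR adjusted p = 0.0505). That pseudogene had 7, 12 and 4 counts with PBS and 2, 1 and 1 with TPBC-PEG. The ratio of BLVRA to BLVRB counts was 1.69, 1.69 and 1.67 with PBS and 1.46, 1.31 and 1.41 with TPBC-PEG (log2 difference -0.27, exact permutation p = 0.1, 0.125 adjusted over 5 ratios).

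FTL, the ferritin light chain that helps the iron core form, lies at chr19:48965301-48966878 (plus strand). It measured 763.5, 676.2 and 703.3 CPM with PBS and 1016, 1045 and 1031 CPM with TPBC-PEG. No TPBC-PEG library came near the PBS range. The mean rose from 714.3 ± 44.7 to 1031 ± 14.2 CPM (SD, n = 3 each), 1.44-fold (log2 fold change 0.53 ± 0.038 SE, 95% interval 0.45 to 0.61, edgeR adjusted p = 7.57e-16). The annotation holds 16 FTL pseudogene rows, 5 of them with any count, and these summed to 0.0901% to 0.137% of the FTL counts in a library. The element printed above sits in the leader of this message, where it acts on translation, which RNA counts do not measure.

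FTH1, the ferritin heavy chain whose ferroxidase activity oxidises iron for storage, lies at chr11:61959718-61967660 (minus strand). Its levels were 462.7, 424.7 and 451.5 CPM with PBS and 600.4, 631.6 and 610.1 CPM with TPBC-PEG. The groups were again apart. The mean rose from 446.3 ± 19.5 to 614.0 ± 15.98 CPM (SD, n = 3 each), 1.38-fold (log2 fold change 0.46 ± 0.037 SE, 95% interval 0.39 to 0.54, edgeR adjusted p = 2.24e-14). Of its annotated exon length 62.4% overlaps BEST1 on the other strand, and whether counting used strand is not given in the sources used here. BEST1 had 5, 9 and 1 counts with PBS and 27, 34 and 25 with TPBC-PEG, against 7159 to 13100 for FTH1. Adding so few counts could hardly move the estimate, and the summed log2 fold change was 0.46 (edgeR adjusted p = 1.8e-14). Reads in the overlap that were counted for neither gene would not show in this sum. FTH1 has 25 pseudogene rows, 10 with any count, that came to 0.586% to 0.873% of its counts.

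The chains rose almost in step. Ratios of FTH1 to FTL counts were 0.606, 0.628 and 0.642 with PBS and 0.591, 0.605 and 0.592 with TPBC-PEG. The TPBC-PEG ratios were all below the PBS ratios, by a mean log2 difference of -0.070 (exact permutation p = 0.1, 0.125 adjusted over 5 ratios). Together the chains measured 1226, 1101 and 1155 CPM with PBS and 1617, 1676 and 1641 CPM with TPBC-PEG (1161 ± 62.8 against 1645 ± 30.0 CPM, SD, n = 3 each; exact permutation p = 0.1).

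NCOA4, the receptor that carries ferritin to autophagosomes so that its iron is released, lies at chr10:46005088-46030714 (minus strand). It measured 227.1, 235.6 and 243.0 CPM with PBS and 218.8, 209.7 and 213.0 CPM with TPBC-PEG. The groups did not overlap, although PBS replicate 1 and TPBC-PEG replicate 1 were close. It fell by 0.14 on the log2 scale (SE 0.039, 95% interval -0.21 to -0.060, edgeR adjusted p = 0.00414), the smallest of the 7 called changes. The call was lost when libraries were scaled by their totals alone (-0.093, edgeR adjusted p = 0.051) and when a trend with expression level was removed (-0.071, edgeR adjusted p = 0.156).

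TFRC, the transferrin receptor (chr3:196027183-196082189, minus strand), did not pass the test. It measured 737.9, 738.5 and 746.7 CPM with PBS and 738.7, 764.6 and 741.6 CPM with TPBC-PEG. TPBC-PEG replicate 2 was the highest and the other 5 libraries lay within a narrow band. Its log2 fold change of 0.014 ± 0.035 SE had a 95% interval of -0.057 to 0.085 (edgeR adjusted p = 0.805). With a trend with expression level removed it passed the threshold as higher (0.11, edgeR adjusted p = 0.00672), and with a GC trend removed its sign turned (-0.036, edgeR adjusted p = 0.406). With FTH1 higher, the ratio of TFRC to FTH1 counts was 1.59, 1.74 and 1.65 with PBS and 1.23, 1.21 and 1.22 with TPBC-PEG, a mean log2 difference of -0.45 (exact permutation p = 0.1, 0.125 adjusted over 5 ratios).

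ALAS1, the rate-limiting first enzyme of haem synthesis in most cells (chr3:52198086-52214327, plus strand), measured 95.5, 102.0 and 97.3 CPM with PBS and 101.5, 103.2 and 105.4 CPM with TPBC-PEG. PBS replicate 2 lay inside the TPBC-PEG range. The log2 fold change was 0.073 ± 0.045 SE (95% interval -0.019 to 0.16, edgeR adjusted p = 0.233), and it passed the threshold when libraries were scaled by their totals alone (0.12, edgeR adjusted p = 0.0467).

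FECH, the mitochondrial ferrochelatase (chr18:57548283-57586772, minus strand), measured 34.6, 39.7 and 40.7 CPM with PBS and 43.1, 43.1 and 42.1 CPM with TPBC-PEG. PBS replicate 1 was the lowest, and the other PBS libraries came close to the TPBC-PEG libraries. Its rise of 0.16 ± 0.065 SE on the log2 scale sat at the threshold (95% interval 0.031 to 0.29, edgeR adjusted p = 0.049). Without PBS replicate 1 the log2 fold change was 0.083 (edgeR adjusted p = 0.396), and the call was lost in 12 settings other than the 1.5-fold test. With the replicate number as a block the edgeR adjusted p was 0.0561. The ratio of ALAS1 to FECH counts was 2.76, 2.57 and 2.39 with PBS and 2.36, 2.40 and 2.50 with TPBC-PEG, overlapping between groups (log2 difference -0.088, exact permutation p = 0.3, 0.3 adjusted over 5 ratios). The difference was -0.036 without PBS replicate 1 and -0.14 without PBS replicate 3.

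**Figure D3:**
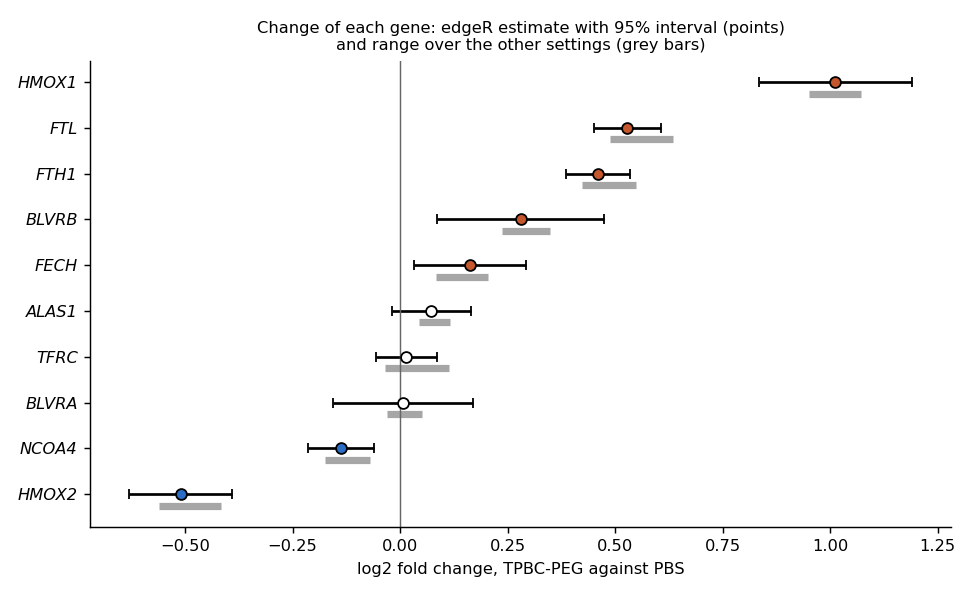
Log2 fold change of TPBC-PEG over PBS (x axis) for the 10 genes with 95% confidence intervals from edgeR; grey bars span the other settings. HMOX1 stands highest at 1.01, FTL and FTH1 follow at 0.53 and 0.46, HMOX2 is lowest at -0.51, and the intervals of BLVRA, TFRC and ALAS1 cross 0.

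Levels of different genes were compared as CPM per kilobase of exon. With PBS the order was FTL (813.6 ± 50.9), FTH1 (219.8 ± 9.61), TFRC (93.95 ± 0.625), NCOA4 (57.7 ± 1.95), ALAS1 (38.8 ± 1.33), HMOX2 (15.5 ± 0.926), BLVRA (11.7 ± 0.3999), FECH (8.57 ± 0.734), BLVRB (7.47 ± 0.289) and HMOX1 (5.17 ± 0.370, all CPM per kilobase, SD, n = 3), with no overlap between neighbours. HMOX1 was therefore the lowest of the 10 in the control cells. With TPBC-PEG the first 5 kept their order, and HMOX1 at 10.4 ± 0.385 CPM per kilobase came close to HMOX2 at 10.9 ± 0.295 CPM per kilobase (SD, n = 3 each). The libraries of those genes overlapped, as did those of HMOX2 and BLVRA (11.7 ± 0.554 CPM per kilobase, SD, n = 3). The lower part of the order rested on the length used. With the length of 1 principal transcript HMOX1 was at 13.7 ± 0.508 and HMOX2 at 19.2 ± 0.521 CPM per kilobase with TPBC-PEG (SD, n = 3 each), while FTL, FTH1, TFRC, NCOA4 and ALAS1 kept their order in both groups.

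No other measured gene of the haem and iron lists changed as much as HMOX1. In 9 lists of haem and iron genes, the 85 genes outside the 10 above included 76 that were measured, of which 10 were higher, 12 lower and 54 not called, with a median log2 fold change of -0.039. Their share called was not above the 33.2% called among all genes tested. In the haem synthesis list, 8 of 9 genes were measured, with 1 higher (FECH), 2 lower and 5 not called, and 2 higher without PBS replicate 2. Those lower were CPOX, the coproporphyrinogen oxidase (64.6 ± 2.53 to 54.1 ± 4.37 CPM, SD, n = 3 each; log2 fold change -0.26 ± 0.058 SE, edgeR adjusted p = 0.000363), and UROS, the uroporphyrinogen synthase (62.2 ± 2.80 to 53.6 ± 0.196 CPM, SD, n = 3 each; -0.21 ± 0.055 SE, edgeR adjusted p = 0.00168). The erythroid first enzyme ALAS2 was at 0 in all libraries. PPOX, which acts between CPOX and FECH, was not called, at 5.78 ± 0.934 and 7.13 ± 0.550 CPM (SD, n = 3 each; edgeR adjusted p = 0.104).

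Among 13 genes that support synthesis or move haem, 0 were higher and 2 lower. The list median was -0.0048, and 33.2% of all genes tested were called. ABCB10, a mitochondrial transporter needed for haem production, fell from 48.7 ± 0.0714 to 41.7 ± 0.350 CPM (SD, n = 3 each; log2 fold change -0.22 ± 0.059 SE, edgeR adjusted p = 0.00228). SLC25A39, which carries glutathione into mitochondria, was lower (-0.15 ± 0.047 SE, edgeR adjusted p = 0.0112), but its call was lost in 5 other settings, among them without PBS replicate 2 (edgeR adjusted p = 0.089) and without TPBC-PEG replicate 2 (edgeR adjusted p = 0.133). In the haem breakdown list POR, the reductase that feeds electrons to haem oxygenases, stood at 20.8 ± 2.84 and 21.8 ± 2.53 CPM (SD, n = 3 each; edgeR adjusted p = 0.674).

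Of the 10 measured iron uptake genes, TFRC among them, 2 were higher, 1 was lower and 7 were not called, against 33.2% called among all genes tested. SLC39A14, a carrier of iron not bound to transferrin, rose from 225.6 ± 10.2 to 278.2 ± 14.0 CPM (SD, n = 3 each; log2 fold change 0.30 ± 0.040 SE, edgeR adjusted p = 3.69e-08). SLC11A2, which takes iron out of the endosome, rose by 0.21 ± 0.057 SE on the log2 scale (edgeR adjusted p = 0.00381). STEAP3, the endosomal ferrireductase, fell from 129.2 ± 4.37 to 106.9 ± 3.30 CPM (SD, n = 3 each; -0.27 ± 0.044 SE, edgeR adjusted p = 1.74e-06). The exporter ferroportin, SLC40A1, was the 1 measured gene of 5 in its list, at 5.74 ± 0.929 and 5.35 ± 0.80 CPM (SD, n = 3 each; edgeR adjusted p = 0.685).

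In the list of ferritin, iron chaperones and ferritin autophagy, 3 of 10 measured genes were higher and 3 lower. Over all genes tested 16.2% were higher and 16.9% lower. Beside FTH1 and FTL, the autophagy adaptor TAX1BP1 rose from 72.1 ± 1.01 to 90.9 ± 4.10 CPM (SD, n = 3 each; log2 fold change 0.34 ± 0.049 SE, edgeR adjusted p = 2.33e-07). Beside NCOA4, the poly(C)-binding proteins PCBP4 and PCBP1 fell, by 0.44 and 0.18 on the log2 scale (SE 0.088 and 0.039, edgeR adjusted p = 8.34e-05 and 0.000222). PCBP1 is a chaperone that hands iron to ferritin, and 52.2% of its exon length overlaps PCBP1-AS1. The other poly(C)-binding proteins in this list were not called.

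Of 5 genes for the iron regulatory proteins and their control, 1 was lower (ACO1) and 4 were not called. The share called among all genes tested was 33.2%. The lower count was 2 without PBS replicate 1, without PBS replicate 2, with DESeq2 size factors and with a 1 CPM filter, and 3 with a GC trend removed. ACO1, which encodes the iron regulatory protein that doubles as cytosolic aconitase, measured 135, 142 and 140 CPM with PBS and 107, 105 and 116 CPM with TPBC-PEG. It fell by 0.35 on the log2 scale (SE 0.044, edgeR adjusted p = 1.06e-08), and it was lower in all 3 TPBC-PEG libraries than in any PBS library. IREB2, the other iron regulatory protein, was at 99.8 ± 1.39 and 94.2 ± 0.999 CPM (SD, n = 3 each; log2 fold change -0.082 ± 0.045 SE, edgeR adjusted p = 0.168).

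The mitochondrial iron list had 24 measured genes, 2 higher, 4 lower and 18 not called, against 33.2% called among all genes tested. Without PBS replicate 2 the higher count was 1. The lower count was 2 without TPBC-PEG replicate 2 and 2 without TPBC-PEG replicate 3, and it was 7 with a GC trend removed. CISD2, an iron-sulfur protein of the endoplasmic reticulum and mitochondrial contacts, and the assembly scaffold ISCU rose by 0.29 ± 0.054 SE and 0.25 ± 0.066 SE on the log2 scale (edgeR adjusted p = 3.33e-05 and 0.00248). The ISCU call was lost without PBS replicate 2 (edgeR adjusted p = 0.0505). CISD1, of the outer mitochondrial membrane, fell by 0.26 and the cytosolic targeting factor MMS19 by 0.17 on the log2 scale (SE 0.063 and 0.046, edgeR adjusted p = 0.00104 and 0.00285). The iron importer SLC25A37 was also lower, and it was named after its values were seen (log2 fold change -0.12 ± 0.043 SE, edgeR adjusted p = 0.0335). Its call was lost in 7 settings other than the 1.5-fold test, and the left-out libraries behind such losses were PBS replicates 1 and 2 (edgeR adjusted p = 0.109 and 0.0572) and TPBC-PEG replicates 2 and 3 (edgeR adjusted p = 0.234 and 0.0667).

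The list of transcription factors known to act on HMOX1 and ferritin genes, which also holds the NRF2 adaptor KEAP1, had 5 of 10 genes higher and 0 lower, with a median log2 fold change of 0.21. Among all genes tested 16.2% were higher and 16.9% lower. The list was chosen with earlier results of these data known, so this contrast is a description only. The count of lower genes in the list was 1 without TPBC-PEG replicate 3 and with DESeq2 size factors. KEAP1 was at 47.0 ± 1.36 and 42.5 ± 2.43 CPM (SD, n = 3 each; edgeR adjusted p = 0.0584). ATF4, the amino acid and stress response factor, rose from 442.3 ± 15.8 to 627.8 ± 23.3 CPM (SD, n = 3 each; log2 fold change 0.51 ± 0.037 SE, edgeR adjusted p = 9.86e-16). The small MAF partners MAFG and MAFK rose by 0.44 ± 0.056 SE and 0.32 ± 0.060 SE on the log2 scale (edgeR adjusted p = 1.32e-08 and 2.95e-05), and 18.1% of the MAFK exon length overlaps TMEM184A. Both the activator and the repressor of the shared sites were higher. NFE2L2, which encodes NRF2, rose by 0.27 ± 0.046 SE and BACH1 by 0.32 ± 0.054 SE on the log2 scale (edgeR adjusted p = 4.92e-06 and 6.22e-06). This pair was named after its values were seen. Of the NFE2L2 exon length 20.9% overlaps other genes (AC019080.1, AC079305.1 and AGPS). Protein levels were not analysed here.

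**Figure D4:**
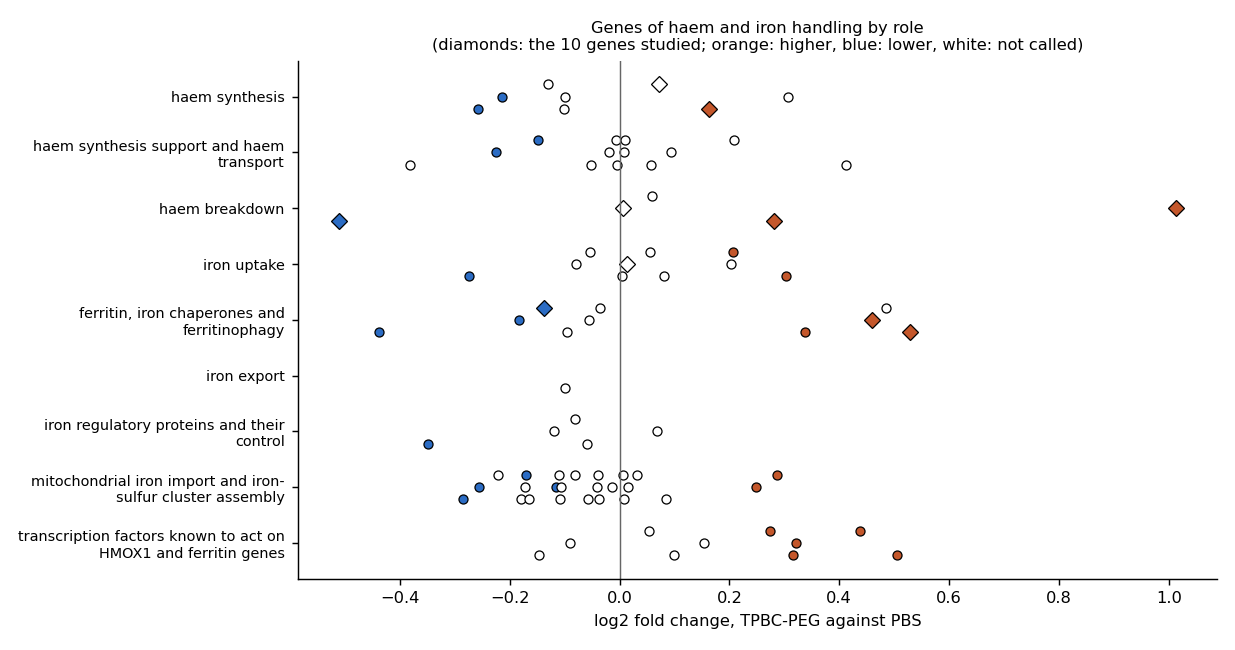
Log2 fold change of TPBC-PEG over PBS (x axis) for each measured gene of the 9 haem and iron lists (rows); diamonds mark the 10 genes described first. Most points lie near 0, HMOX1 stands apart at 1.01, and the transcription factor list has a median of 0.21.

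Motifs for the antioxidant response element core, AP-1 and the ATF4 composite element were searched on both strands in the RefSeq promoter table. Its entries (GRCh38.p14) span 250 bases before to 50 after a start. It gave 10 entries for 8 of the 10 genes: BLVRA, BLVRB, HMOX2, FTL, TFRC, NCOA4, ALAS1 and FECH. HMOX1 and FTH1 had no entry and were not searched. Sites outside these windows could not be seen for any gene. The antioxidant response element core TGACNNNGC was in NCOA4 and FECH and in 13.3% of all 35116 promoters. TGANTCA, the AP-1 motif, which reads the same on both strands, was in NCOA4 and in 7.71% of promoters. The NCOA4 matches to these motifs lay in different promoter entries of the gene (chr10:46019958-46019986 and chr10:46030837-46030863, with flanks). The ATF4 composite element TGATGNAA was in 0 of the 8 and in 3.62% of promoters. These matches are letters in a window and no binding was measured.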

How the data were processed

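Messenger RNA was sequenced in 6 libraries of 143B cells, 3 given PBS and 3 given TPBC-PEG, with group and replicate as given in the sample titles. The authors deposited raw read counts for 60683 Ensembl gene identifiers. The submitters' processing notes name HISAT2 and GRCh38. Not given in the sources used here are the HISAT2 version, the counter, its annotation and strand setting, and what was done with multiply aligned reads. Symbols were found for 42013 rows, and positions and exon lengths came from GENCODE release 29.

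From the counts, genes were kept by filterByExpr (minimum count 10, minimum total 15; 15846 genes) and TMM-scaled. They were tested with edgeR 4.0.16 in R 4.3.3 (robust quasi-likelihood, group as the only term, Benjamini-Hochberg over all genes tested, called under 0.05). The standard error came from the F statistic. CPM are counts relative to the TMM-scaled library size. Library totals ran from 15726323 to 20486584 counts. The labels name no molecular identifiers, so reads may repeat a molecule, which counting error ignores. On simulated TPBC-PEG and PBS libraries (15445 genes, 200 of them changed) the test found 48% of 1.25-fold, 80% of 1.5-fold, 88% of 2-fold and 98% of 4-fold changes, with 10 false calls among 167.

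The 10 genes and the gene lists were chosen with earlier results of these data known. All 10 genes are named. From each list the text names up to 3 genes called higher and 3 called lower (largest changes, mean of 1 CPM or more in a group), or the 2 most abundant where none was called; BACH1, NFE2L2, SLC25A37, PPOX, IREB2 and KEAP1 were added after their values were seen. A gene that the rule gave is not reported here. Alternatives were other scalings, filters and tests (limma 3.58.1, DESeq2 1.42.0), non-robust estimation, a 1.5-fold threshold, a replicate block, removal of trends with GC content (from GENCODE transcripts) or expression level, leaving out each library, and summing genes with their pseudogenes. Summing FTH1 and HMOX2 with overlapping genes, and lengths of principal transcripts, were added after seeing the data. The labels do not tie same-numbered libraries together, so they were not treated as pairs. Iron-responsive elements and promoter motifs were searched in GENCODE transcripts and the RefSeq promoter table.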

Additional observations from a re-analysis of the deposited data

How the results depend on the processing

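Of 200 alternative values for the 10 genes, 164 kept their direction and their side of the threshold, 26 no longer passed, 2 newly passed and 8 turned sign. For the other named genes the counts were 407, 38, 0 and 4 of 449. The number of the 10 genes called higher (5) was 3 with DESeq2 and ran from 3 to 5 when single libraries were left out. The number called lower (2) was 1 when scaled by library size alone, and also 1 after removal of the expression-level trend. Testing against a 1.5-fold change left 1 higher and 0 lower of the 10, 0 and 0 of the other listed genes, and 131 and 14 of all genes (2574 and 2682 without that threshold). Other listed genes called higher numbered 17 with library size alone, against 10. Sign changes were limited to genes that were not called: BLVRA was -0.00036 with no filter, -0.0087 with the GC trend removed, -0.014 with the expression-level trend removed and -0.031 to 0.046 when single libraries were left out; TFRC was -0.036 with the GC trend removed and -0.0022 to 0.023 when single libraries were left out. Leaving out single libraries gave -0.033 to 0.18 for POR and -0.22 to 0.029 for SLC40A1. The cause of these changes was not tested. Same-numbered libraries did not deviate together (r = 0.0034, 0.065 and -0.015 across genes); with the replicate block 4 of the 10 genes were higher and 2 lower, FECH being lost (0.16, edgeR adjusted p = 0.0561), and 2531 and 2644 of all genes. On simulated libraries 48% of the smallest changes tried were found. A smaller share of genes was changed there than was called here, and the adjustment of p-values depends on that share. The 48% therefore does not give the rate at which changes of the size of BLVRB, NCOA4 or FECH are missed here. How often such changes are missed at this depth with 3 libraries a group was not tested.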
